A study of Homo sapiens with 6 samples.

Results

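The genes described here are 7 transcription factors of the epithelial-mesenchymal transition (EMT), namely ZEB1, ZEB2, SNAI1, SNAI2, TWIST1, TWIST2 and PRRX1, with the intermediate filament gene VIM and the splicing regulators ESRP1 and ESRP2. They were taken by gene symbol, and all 10 were found among the 20289 genes of the deposited table. RNA was sequenced from 6 libraries labelled as T24, an established human bladder cancer line grown in RPMI medium with 10% fetal bovine serum. With Lipofectamine 3000, 3 libraries received the empty plasmid pcDNA3.1 (label Vector) and 3 received pcDNA3.1 with LINC00665, a long intergenic non-coding RNA (label LINC00665). The labels name 3 independent experiments, and the stated interest is how LINC00665 acts in the lymph node metastasis of bladder cancer.

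The libraries held 17289788 to 22725687 expected counts. In the table used here 0 rows carry the symbol LINC00665, and its level was not analysed here. Levels are given in CPM, a gene's count relative to the scaled library total, or in FPKM, which also divides by gene length. When libraries were checked for mix-ups, 3 of 6 did not match the labelled line, and no comparison between labels remains without them. Groups are therefore named by their labels, and every direction below is between labels. Across genes the log2 CPM correlated at 0.967 to 0.99 between libraries of 1 label and at 0.659 to 0.68 between labels. The summed level of 19 urothelial and epithelial markers was 1026 to 3192 CPM under Vector and 10487 to 12558 CPM under LINC00665, with 4 and 1 of them at 0 counts in a whole group. Keratins KRT8 and KRT18 were present under both labels, at 836.7 ± 431.6 and 1001 ± 740.2 CPM under Vector (SD, n = 3). Basal and urothelial markers KRT5, KRT17, GATA3 and TP63 were at 0.383, 0.203, 0.053 and 0.0871 CPM there. The 12 kidney epithelial markers summed to 385.7 to 549.4 CPM under Vector and 45.6 to 49.3 CPM under LINC00665, with 2 and 1 at 0. Of the 7 tested, 5 were lower under LINC00665, among them PAX2 and HAVCR1 at 0.062 and 0.0355 CPM there, and 2 were higher, LHX1 (0.337 and 18.5 CPM under Vector and LINC00665) and WT1 (5.14 and 12.6 CPM). Fibroblast markers (10 genes) summed to 2.38 to 4.57 CPM under Vector and 245.3 to 272.8 CPM under LINC00665, with 3 and 0 at 0. Most of the LINC00665 sum came from THY1 (164.5 CPM) and COL1A1 (71.3 CPM). In the same libraries DCN, LUM, COL3A1 and COL6A3 were at 0.332, 0.173, 1.39 and 1.34 CPM. Endothelial markers (8 genes, 5 and 1 at 0) summed to 0.28 to 1.14 and 12 to 14 CPM, and leukocyte markers (9 genes, 5 and 4 at 0) to 10.8 to 17 and 116.9 to 189.3 CPM. Their part in the differences below was not tested.

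EMT is the change by which epithelial cells loosen their junctions and take on a motile, mesenchymal form. The ZEB and Snail zinc finger proteins bind E-boxes, short DNA motifs, in promoters of junction genes and repress them, and the basic helix-loop-helix Twist proteins and the homeobox protein PRRX1 act in the same programme. Vimentin is the filament protein used as its standard marker. ESRP1 and ESRP2 direct epithelial patterns of alternative splicing, and ZEB factors are known repressors of ESRP1.

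Promoter sequences bear on these factors through the E-box, written CAGGTG on one strand and CACCTG on the other. A window of 250 bases before and 50 bases after each RefSeq gene start (GRCh38.p14) was searched on both strands. Windows were found for ZEB1, ZEB2, VIM, PRRX1 and TWIST2. The 250 upstream bases of 1 ZEB1 start and of VIM are shown as the pair of members that fell, and those of RAB25, a small GTPase of epithelial vesicle transport, as an epithelial gene with an E-box. Sequences run 5′ to 3′ on the gene's strand, with E-boxes in capitals.
ZEB1, chr10:31318167-31318416, plus strand: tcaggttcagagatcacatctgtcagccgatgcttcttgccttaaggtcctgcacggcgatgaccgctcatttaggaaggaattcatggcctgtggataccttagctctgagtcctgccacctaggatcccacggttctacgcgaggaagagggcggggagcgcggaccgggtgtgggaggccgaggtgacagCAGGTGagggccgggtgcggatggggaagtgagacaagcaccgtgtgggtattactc
VIM, chr10:17227991-17228240, plus strand: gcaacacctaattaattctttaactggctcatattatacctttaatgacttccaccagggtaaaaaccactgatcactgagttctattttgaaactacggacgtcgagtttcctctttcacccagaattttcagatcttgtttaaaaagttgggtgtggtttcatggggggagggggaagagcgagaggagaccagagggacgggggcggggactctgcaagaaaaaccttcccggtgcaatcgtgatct
RAB25, chr1:156060910-156061159, plus strand: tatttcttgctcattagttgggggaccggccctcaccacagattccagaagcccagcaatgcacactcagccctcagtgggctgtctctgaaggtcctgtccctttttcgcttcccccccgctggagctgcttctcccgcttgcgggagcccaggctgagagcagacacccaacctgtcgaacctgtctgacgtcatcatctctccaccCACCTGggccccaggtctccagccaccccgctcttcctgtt
In GENCODE v29 the ZEB1 window lies before the annotated gene and within an exon of the antisense gene ZEB1-AS1. The VIM window lies in an intron of VIM-AS1, and the RAB25 window lies in no annotated gene. The E-box of the ZEB1 window begins 57 bases before its RefSeq start (the 50 bases after that start matched no GENCODE v29 transcript of ZEB1), and the RAB25 one 41 bases before its start. ZEB1 has 7 windows and 5 hold no E-box. The other with a match has E-boxes beginning 242 and 85 bases before its start, among 3 in the window. The VIM window holds 0 matches, which says only that these letters are not in it.

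Among all genes with a window, 6571 of 27305 (24.1%) held the motif in at least 1 window, beside 7231 of 35116 windows (20.6%). Of the 33 epithelial genes listed as repressed by ZEB and Snail factors, 18 had a window and 15 of these (83.3%) held it. This list was drawn up as targets of repressors that bind E-boxes, so its share cannot be read as a result of these data. Of the epithelial transcription factors it was in 5 of 12 (41.7%), of the mesenchymal genes in 3 of 17 (17.6%), and of the members in 1 of 5 (20%). Claudin gene CLDN7 held E-boxes beginning 174, 135, 20 and 9 bases before its start, and the polarity gene CRB3 held them 228, 208, 147, 89 and 60 bases before. The 26 bases around one E-box of each of these and of the junction genes OCLN, DSP and JUP are shown, to set beside their levels below.
CLDN7, chr17:7262483-7262508, minus strand: tacatatactCAGGTGcgccccacct
CRB3, chr19:6464201-6464226, plus strand: tgcgctctccCAGGTGagtgactaaa
OCLN, chr5:69492504-69492529, plus strand: atccgagtttCAGGTGaattggtcac
DSP, chr6:7541576-7541601, plus strand: agaaaccggcCAGGTGtggcctaggc
JUP, chr17:41786004-41786029, minus strand: acctgccgagCAGGTGagcgcacgga
A match in these windows is a description of letters and no measurement of binding.

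The members did not move in 1 direction. SNAI1, SNAI2, TWIST1, ESRP1 and ESRP2 were higher under the LINC00665 label, ZEB1 and VIM were lower, ZEB2 did not pass the test, and TWIST2 and PRRX1 had too few counts to be tested. The test was edgeR's quasi-likelihood test, with Benjamini-Hochberg adjustment over 13552 genes and a threshold of 0.05, and 8 of the 10 members passed its filter on low counts. Of all tested genes 63.5% were called, 34.2% higher and 29.3% lower under LINC00665, and the libraries of the labels did not overlap in 70.2%. Of the tested members, 5 were called higher, 2 lower and 1 neither, and 7 did not overlap. Of these 8, SNAI2, TWIST1 and ESRP2 passed the filter only through the LINC00665 libraries and ZEB1 only through the Vector libraries. For such a gene a difference was a condition of being tested, so the counts of members called support nothing by themselves. In bulk RNA, fewer cells of a type and less RNA per cell cannot be told apart. Below, rose and fell are used only of genes called by this test.

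**Figure D1:**
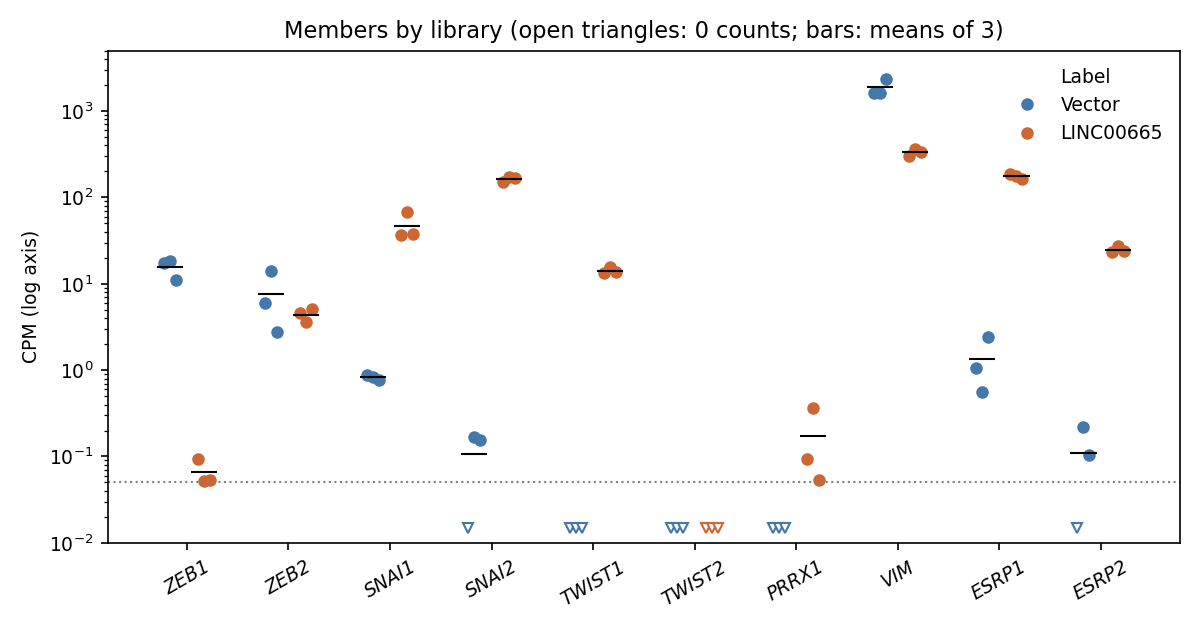
Normalised counts (CPM, log axis) of the 10 genes in each library, with bars at the mean of 3 libraries, open triangles for libraries at 0 counts and a dotted line at 3 counts over a group. The labels are apart for ZEB1, SNAI1, SNAI2, TWIST1, VIM, ESRP1 and ESRP2, overlap for ZEB2, and TWIST2 is at 0 in all 6 libraries.

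ZEB1, a repressor of CDH1, ESRP1 and the miR-200 family, lies at chr10:31318495-31529814 (plus strand, GRCh38). Its level was 17.5, 18.2 and 11 CPM in the 3 Vector libraries and 0.093, 0.0525 and 0.0538 CPM in the 3 LINC00665 libraries. The latter rest on 2, 1 and 1 counts, against 375, 328 and 212. All Vector libraries were high, all LINC00665 libraries were close to the limit of detection (3 counts over a group, about 0.051 CPM), and the groups did not overlap. ZEB1 fell from 15.6 ± 3.99 to 0.0665 ± 0.023 CPM (SD, n = 3), with an edgeR estimate of -7.72 (log2, SE 0.41, adjusted p = 1.6e-06). Over the summed counts, 915 against 4, the ratio was 230 (exact 95% binomial interval 89.5 to 846). This interval and those of the ratios below pool the libraries of a label. They hold counting error only and leave out the spread between libraries. The reads carry no molecular identifiers, so even for counting error the intervals can be too narrow. The antisense gene ZEB1-AS1 overlaps it, and without stated use of strand its reads cannot be told apart from those of ZEB1. The same holds for antisense genes that overlap ZEB2 (ZEB2-AS1 and AC009951.2) and TWIST1 (AC003986.2).

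ZEB2, the paralog with largely shared targets, lies at chr2:144364364-144524583 (minus strand). It was at 6.01, 14.2 and 2.74 CPM under Vector and at 4.56, 3.57 and 5.06 CPM under LINC00665. The Vector libraries spread on both sides of the LINC00665 libraries, with a coefficient of variation of 77.2% against 17.2%. Its log2 fold change was -0.80 (SE 0.52, adjusted p = 0.21, edgeR; exact two-sided permutation p = 0.6, n = 3 per label). One library decided the call: without Vector 3 it was -1.2 with an adjusted p of 0.018 (edgeR), and without Vector 2 it was 0.00 with an adjusted p of 0.99. The paralogs also differed in their balance. The ratio of ZEB1 to ZEB2 in FPKM was 1.85, 1.19 and 2.48 under Vector and 0.0143, 0.0118 and 0.0172 under LINC00665. These ratios did not overlap (exact two-sided permutation p = 0.1, the smallest that 3 against 3 allows).

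SNAI1, or Snail, lies at chr20:49982999-49988886 (plus strand). It had 0.886, 0.833 and 0.776 CPM under Vector and 36.8, 67.1 and 37.8 CPM under LINC00665. Every LINC00665 library lay far above every Vector library, and LINC00665 2 was the highest. SNAI1 rose from 0.832 ± 0.0548 to 47.3 ± 17.2 CPM (edgeR estimate 5.82 on the log2 scale with an SE of 0.33, adjusted p = 2.2e-06). It passed the filter in either label alone.

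SNAI2, or Slug, which in many tissues also belongs to the basal epithelial programme, lies at chr8:48917604-48921740 (minus strand). It had 0, 3 and 3 counts (0, 0.167 and 0.155 CPM) under Vector and 150.4, 172.5 and 170.2 CPM under LINC00665. The Vector libraries were at or near 0 and the LINC00665 libraries were close to each other. SNAI2 rose from 0.107 ± 0.0931 to 164.4 ± 12.1 CPM (edgeR estimate 10.56 on the log2 scale with an SE of 0.41, adjusted p = 3.6e-07), a ratio of summed counts of 1604 (737 to 4373). Without Vector 1, the library at 0, the log2 estimate was 9.94. The third Snail gene, SNAI3, rose from 0.521 ± 0.367 to 4.64 ± 1.46 CPM (edgeR estimate 3.13 on the log2 scale, adjusted p = 0.0013). Within the pair the order turned: SNAI2 over SNAI1 in FPKM was 0, 0.157 and 0.167 under Vector and 3.3, 2.01 and 3.67 under LINC00665 (exact two-sided permutation p = 0.1).

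TWIST1, a basic helix-loop-helix factor, lies at chr7:19020991-19117672 (minus strand). It had 0 counts in all 3 Vector libraries and 13.3, 15.5 and 13.6 CPM (287, 295 and 253 counts) under LINC00665. It was at least 277-fold higher under LINC00665, against a floor of 3 counts over the Vector group (adjusted p = 5.9e-06, edgeR). Its close relative TWIST2 (chr2:238848032-238910543, plus strand) had 0 counts in all 6 libraries, which allows up to 0.051 CPM in the Vector and 0.0508 CPM in the LINC00665 group. So the Twist pair was split within the same libraries. PRRX1, at chr1:170662728-170739419 (plus strand), had 0 counts under Vector and 2, 7 and 1 counts under LINC00665 (0.093, 0.368 and 0.0538 CPM). It did not pass the filter, and its group level was at least 3.32-fold higher, a bound that rests on 10 counts. Its paralog PRRX2 had 3 counts under Vector and 0.92 ± 0.296 CPM under LINC00665, a ratio of 17.9 (5.81 to 89.5) with an adjusted p of 0.0012 (edgeR).

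Levels of different genes were compared per length, in FPKM. Under Vector the mean FPKM ran from ZEB1 (3.35 ± 0.799) and ZEB2 (2.08 ± 1.13) to SNAI1 (0.517 ± 0.0404) and SNAI2 (0.0533 ± 0.0462), with TWIST1, TWIST2 and PRRX1 at 0. ZEB1 and ZEB2 overlapped between libraries there. Under LINC00665 it ran from SNAI2 (73.1 ± 5.84), SNAI1 (26.1 ± 8.76) and TWIST1 (9.12 ± 1.19) to ZEB2 (1.14 ± 0.276), PRRX1 (0.0467 ± 0.0551) and ZEB1 (0.0167 ± 0.00577), with TWIST2 at 0. Of neighbours in this order, PRRX1 and ZEB1 overlapped. With VIM and the ESRP genes added, SNAI1 and ESRP1 overlapped under Vector, as did SNAI2 and ESRP2, and no further neighbours above 0 overlapped under either label.

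The 7 factors summed to 6.34, 7.7 and 3.97 FPKM under Vector and to 97.1, 119.6 and 111.7 FPKM under LINC00665. ZEB1 and ZEB2 made up 91.2, 92.3 and 85.9% of that sum under Vector and 1.46, 0.719 and 1.06% under LINC00665. SNAI1 and SNAI2 made up 8.83, 7.66 and 14.1% under Vector and 90.5, 91 and 90.2% under LINC00665. The shares of the TWIST and PRRX1 group were 0 under Vector and 8, 8.3 and 8.77% under LINC00665. In these sums Vector libraries were ZEB-rich and LINC00665 libraries Snail-rich, with no overlap in either share.

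**Figure D2:**
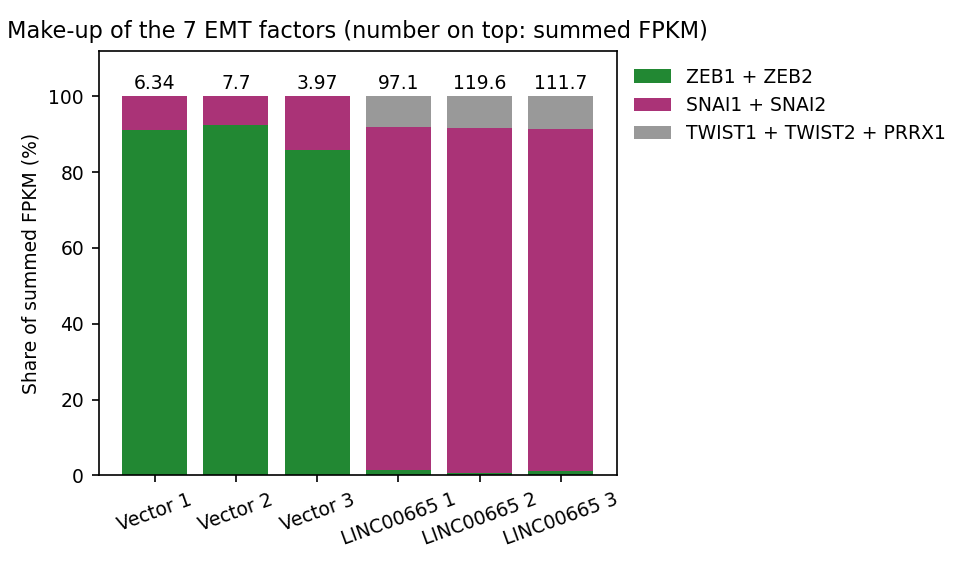
Share (%) of the summed FPKM of the 7 EMT factors held by the ZEB pair, the Snail pair and the TWIST and PRRX1 genes, 1 bar per library, with the summed FPKM on top. ZEB genes hold 85.9 to 92.3% in the 3 Vector libraries and Snail genes 90.2 to 91% in the 3 LINC00665 libraries.

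VIM, at chr10:17228259-17237593 (plus strand), was abundant under both labels. Its level was 1635, 1634 and 2381 CPM under Vector and 300.1, 363.4 and 335.2 CPM under LINC00665. Vector 3 was the highest library and no LINC00665 library came near the lowest Vector library. VIM fell from 1883 ± 431.2 to 332.9 ± 31.7 CPM, with an edgeR estimate of -2.5 (log2, SE 0.19, adjusted p = 1.3e-05). The ratio of summed counts was 5.67 (5.59 to 5.76, counting error only). That interval leaves out the spread between libraries, a coefficient of variation of 22.9% under Vector and 9.53% under LINC00665. By FPKM it ranked 71, 67 and 42 among all genes in the Vector libraries and 468, 440 and 410 in the LINC00665 libraries. At 168.5 ± 14.1 FPKM it was still the highest of the 10 genes under LINC00665. VIM-AS1 overlaps it on the other strand.

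ESRP1, at chr8:94641074-94707466 (plus strand), had 1.07, 0.555 and 2.43 CPM under Vector and 185.7, 177.3 and 164.3 CPM under LINC00665. Vector libraries differed from each other (10 to 47 counts) and all were low, while LINC00665 libraries were high and even. ESRP1 rose from 1.35 ± 0.969 to 175.8 ± 10.8 CPM (edgeR estimate 7.01 on the log2 scale with an SE of 0.44, adjusted p = 4.1e-06), with a ratio of summed counts of 129.5 (104 to 163.5). Without Vector 3, its highest Vector library, the log2 estimate was 7.71. ESRP2, at chr16:68229111-68238102 (minus strand), had 0, 4 and 2 counts under Vector (0, 0.222 and 0.103 CPM) and 23.3, 27.1 and 23.8 CPM under LINC00665. It rose from 0.109 ± 0.111 to 24.7 ± 2.04 CPM (edgeR estimate 7.82 on the log2 scale with an SE of 0.47, adjusted p = 3.1e-06), a ratio of 241.7 (110.8 to 659.6). Its log2 estimate was 7.2 without Vector 1 and 8.8 without Vector 2. ESRP2 was thus near 0 under Vector and ESRP1 low but counted in every library, and ESRP1 stood at 51.8 ± 1.82 FPKM and ESRP2 at 6.99 ± 0.485 FPKM under LINC00665. ESRP2 overlaps NFATC3 on the opposite strand, which went the other way, from 56.5 ± 14 to 37.2 ± 6 CPM (edgeR estimate -0.60 on the log2 scale, adjusted p = 0.035).

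**Figure D3:**
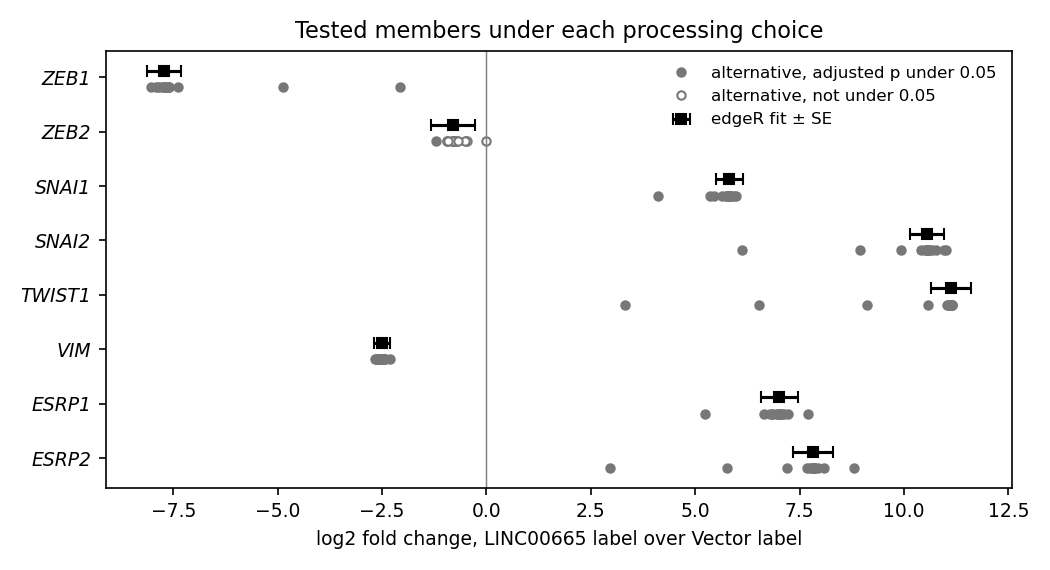
Log2 fold change (LINC00665 label over Vector label) of the 8 tested genes: black squares give the edgeR fit with its SE, filled grey points alternatives with an adjusted p under 0.05, and open points those not under it. ZEB2 runs from -1.2 to 0.00 and VIM from -2.66 to -2.3, and the low values of the sparse genes come from the FPKM scale with a pseudocount of 1.

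The genes with a pattern over the 6 libraries most like VIM, by Euclidean distance between centred log2 CPM values, were BOK (0.224), GNAZ (0.312) and COMMD8 (0.361). BOK went from 65.6 ± 18.7 to 10.8 ± 1.59 CPM and, like VIM, was highest in Vector 3. Nearest to SNAI2 were MAL2 (0.449), THY1 (0.687) and TRIM29 (0.706), all at 11 or fewer counts in the Vector libraries together. MAL2, a protein of apical transport, had 275.2 ± 17.7 CPM under LINC00665, and THY1, a fibroblast surface protein, 164.5 ± 12.2 CPM. Nearest to ZEB1 were BEND4 (0.763), KLHL14 (0.826) and PCDHB2 (0.832), with 1, 2 and 4 counts in the LINC00665 libraries together. These distances describe 6 libraries that share the 2 labels.

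Of 33 listed and tested epithelial targets of the ZEB and Snail repressors, 26 were called higher under LINC00665, 0 lower and 7 neither. That is 78.8% called, against 63.5% of all tested genes (34.2% higher), and the median log2 fold change was 4.54, against 0.03. Without Vector 2, 2 of them were called lower. CDH1, E-cadherin of the adherens junction (chr16:68737225-68835548), rose from 0.377 ± 0.203 to 265.7 ± 15.9 CPM (edgeR estimate 9.45 on the log2 scale with an SE of 0.33, adjusted p = 2.5e-07). EPCAM, an epithelial adhesion molecule, rose from 0.128 ± 0.141 to 123.5 ± 10.2 CPM and P-cadherin CDH3 from 0.483 ± 0.12 to 433.4 ± 31.9 CPM. Of the 26, 14 did not pass the filter in the Vector libraries alone. Among the 19 genes at 1 CPM or more under both labels, 13 were higher, 0 lower, and the median was 1.69. Of the listed genes whose E-boxes are printed above, some rose and others were not called, and ZEB1, which also has one, fell. CLDN7 rose from 0.106 ± 0.06 to 213.5 ± 19.8 CPM, CRB3 from 0.512 ± 0.0525 to 12.1 ± 0.904 CPM and JUP, plakoglobin, from 111 ± 87.7 to 633.3 ± 14.1 CPM, while RAB25 had 2 counts under Vector and 29.8 ± 4.11 CPM under LINC00665 (ratio 875.2, interval 241.9 to 7233). Occludin OCLN, at 43.9 ± 18.1 and 35.4 ± 3.63 CPM (adjusted p = 0.41, edgeR), and desmoplakin DSP, at 115.8 ± 4.31 and 135.9 ± 9.75 CPM (adjusted p = 0.15), were not called. Of the 15 with an E-box in a window 10 were called higher, and of the 3 without one, CLDN1, CLDN4 and MARVELD2, 1 was. Beside these stand 26 of all 33 listed genes and 34.2% of all tested genes. Other listed genes that rose, CDH1, EPCAM and CDH3 among them, had no window. Whether an E-box went with a rise was therefore not tested.

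Of 34 listed and 29 tested mesenchymal genes, 19 were called higher under LINC00665, 2 lower, as VIM was, and 8 neither. That is 72.4% called, against 63.5% of all tested genes (34.2% higher and 29.3% lower), with a median log2 fold change of 2.65 against 0.03. N-cadherin CDH2 rose from 35.4 ± 4.37 to 106.9 ± 7.19 CPM (edgeR estimate 1.59 on the log2 scale with an SE of 0.15, adjusted p = 4e-05). Fibronectin FN1 rose from 341.4 ± 145.2 to 5708 ± 126.2 CPM (edgeR estimate 4.06 on the log2 scale with an SE of 0.30, adjusted p = 9.4e-06). The collagenase MMP14 rose from 1.15 ± 0.212 to 432.5 ± 46.5 CPM and THY1, also one of the fibroblast markers whose sums are given above, from 3 counts in all to 164.5 ± 12.2 CPM. The 2 that fell with VIM were GNG11, from 74 ± 5.68 to 15.2 ± 1.77 CPM, and the integrin ITGB3, from 146.4 ± 41.7 to 3.8 ± 2.26 CPM. Of the 19 that rose, 11 did not pass the filter under Vector alone, and at 1 CPM or more under both labels 10 of 18 were higher and 2 lower.

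Epithelial transcription factors that oppose EMT were called higher in 14 of 15 tested genes and lower in 1 (18 listed, median 7.31). Of all tested genes 34.2% were called higher and 29.3% lower, with a median log2 fold change of 0.03. EHF rose from 0.232 ± 0.11 to 456.8 ± 29.1 CPM and TP63 from 0.0871 ± 0.0352 to 110 ± 13.5 CPM. GRHL2, a direct opponent of ZEB1, had 0 counts under Vector and 77.1 ± 5.01 CPM under LINC00665, at least 1516-fold higher. Of the 14, 8 did not pass the filter under Vector alone, and 6 of 6 at 1 CPM or more under both labels were higher.

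Other EMT and mesenchymal transcription factors were divided, with 11 of 21 tested higher, 4 lower and 6 neither (25 listed, 71.4% called, median 0.69). Over all tested genes 63.5% were called, 34.2% higher and 29.3% lower, with a median of 0.03. Without LINC00665 2, 2 of the list were lower. Of the 11 that rose, 5 did not pass the filter under Vector alone. At 1 CPM or more under both labels 6 of 15 were higher and 3 lower, with a median of 0.11. TBX3 rose from 0.693 ± 0.306 to 110.7 ± 14.4 CPM. The forkhead genes FOXC1 and FOXC2 went opposite ways, from 3.79 ± 0.90 to 91 ± 13.2 CPM and from 4.4 ± 1.05 to 0.104 ± 0.0575 CPM. YBX1 fell from 1879 ± 116.8 to 1126 ± 116.1 CPM (edgeR estimate -0.74, log2).

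**Figure D4:**
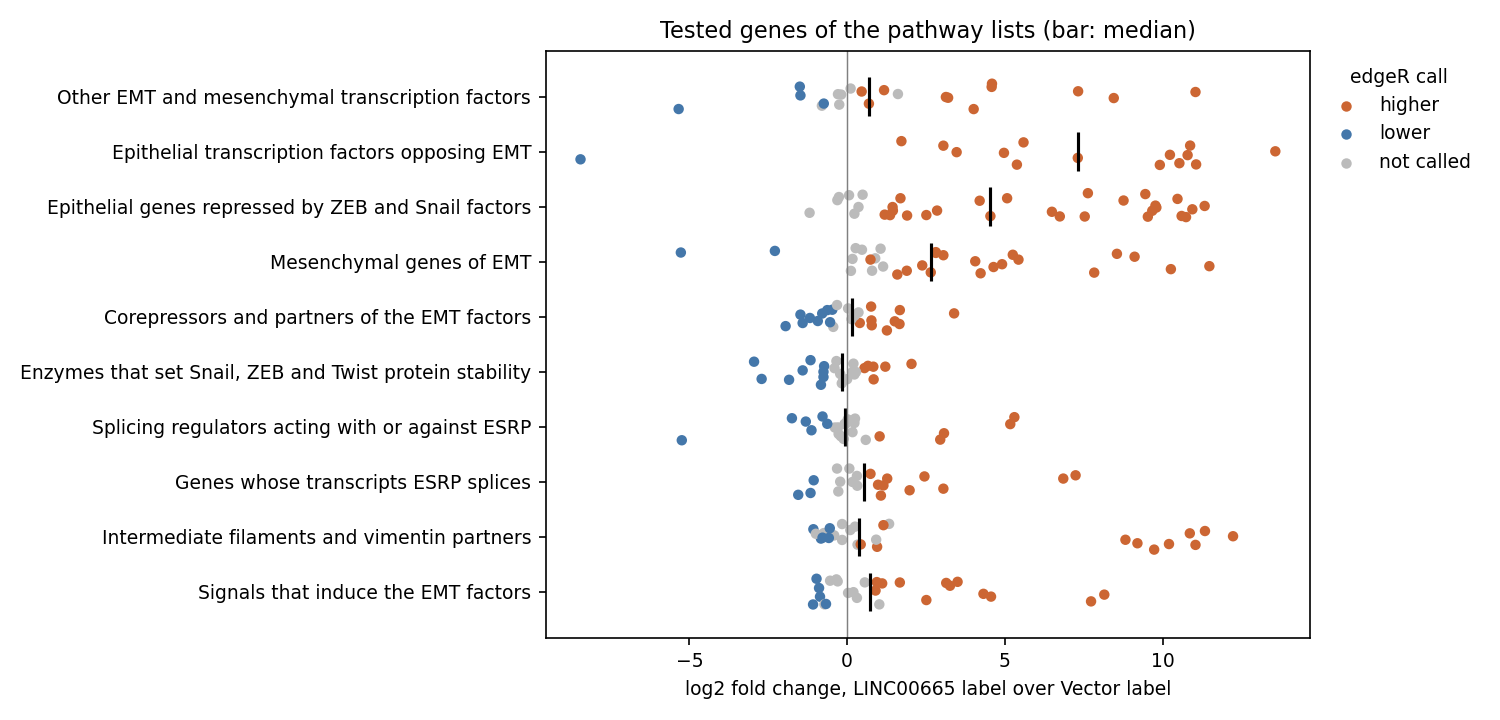
Log2 fold change (LINC00665 label over Vector label) of each tested gene of 10 lists, coloured by its edgeR call, with a bar at the list's median. The epithelial lists lie mostly to the right (medians 4.54 and 7.31), as does the mesenchymal list (median 2.65). The corepressor, stability and splicing regulator lists lie around 0 (medians 0.14, -0.17 and -0.07).

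Corepressors and partners through which these factors act showed calls in both directions, 9 of 25 higher and 9 lower (72% called, median 0.14). AJUBA, a LIM protein that binds Snail, rose from 16.3 ± 3.3 to 170.8 ± 11.6 CPM, and the Polycomb subunit EED from 14.3 ± 1.95 to 45.4 ± 0.986 CPM. The acetyltransferase EP300 fell from 289.5 ± 50.7 to 75.1 ± 13 CPM and the corepressor SIN3A from 158.2 ± 10.6 to 70 ± 4.43 CPM. Of 25 tested enzymes that set the protein stability of these factors (27 listed, 26 in the table), 6 were higher, 9 lower and 10 neither (60% called, median -0.17). The kinase CSNK1E rose from 151.6 ± 13.3 to 351 ± 11.5 CPM and the ubiquitin ligase SIAH2 from 28.1 ± 9.04 to 115.8 ± 11.8 CPM. PRKD1, a kinase that acts on Snail, fell from 29.2 ± 12.4 to 3.77 ± 1.19 CPM, and the phosphatase CTDSP1 from 109.8 ± 31.3 to 30.6 ± 4.98 CPM. The shares called in these lists lay on either side of the 63.5% of all genes.

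Splicing regulators that act with or against ESRP had 5 of 24 tested genes higher, 6 lower and 13 neither (25 listed, 45.8% called, median -0.07). RBM24 rose from 0.548 ± 0.18 to 19.9 ± 1.23 CPM and the muscleblind gene MBNL2 from 7.89 ± 0.986 to 66.1 ± 7.18 CPM. HNRNPM, which opposes ESRP1 on CD44 exons, fell from 352.6 ± 45.5 to 141.8 ± 8.89 CPM, and CELF2 from 4.68 ± 2.91 to 0.115 ± 0.0667 CPM. RBFOX2 had a log2 fold change of -0.39 (adjusted p = 0.15, edgeR). Among 20 genes whose transcripts ESRP splices, 10 were higher, 3 lower and 7 neither (65% called, near the 63.5% of all tested genes, median 0.53). FGFR2, whose epithelial exon ESRP selects, rose from 0.194 ± 0.125 to 22.4 ± 2.17 CPM and SLC37A2 from 0.569 ± 0.315 to 86 ± 1.79 CPM. ARHGEF11 fell from 90.4 ± 10.7 to 30.8 ± 4.06 CPM and MAP3K7 from 67.7 ± 8.43 to 30.4 ± 1.39 CPM. The ESRP targets CD44, CTNND1 and ENAH were not called, with log2 fold changes of 0.17, 0.07 and -0.22 (adjusted p = 0.31, 0.76 and 0.27, edgeR). Gene-level counts do not show which exons these transcripts carried.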

How the data were processed

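RNA was measured in 6 libraries, 3 per label. The submitters' processing notes list HISAT2 2.0.4 and hg38 without saying what each was used for. For the counting tool, the annotation and strand, the sources used here give nothing. The authors deposited expected counts per gene, not normalised, per the file headers (88.3 to 89.4% of values whole), and FPKM values, normalised by the authors for length and library size. Rows without a symbol (583) held 0.119 to 0.15% of counts.

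Expected counts were rounded, filtered with filterByExpr, scaled by TMM and tested with edgeR 4.0.16 in R 4.3.3 with no covariate, over 13552 genes. CPM uses the TMM-scaled library sizes. Library totals alone moved the median log2 fold change of all genes from 0.03 to -0.13. Library pairs of 1 label differed by more than sampling noise (chi-square per degree of freedom 9.85 to 116). Alternatives were 2 other scalings, 3 other filters, DESeq2 1.42.0, limma-voom and limma-trend (limma 3.58.1), a replicate block, a threshold of 0.01 and leaving out each library. Depth was 17289788 to 22725687 counts per library.

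Members and lists were chosen with earlier results of these data known. Named were all members; per list the 2 called genes with the smallest p in each direction; CDH1, CDH2, EPCAM and FN1; and the 3 genes nearest to VIM, SNAI2 and ZEB1 (log2 CPM, prior count 2, mean of 5 CPM or more). SNAI3, PRRX2, GRHL2, RBFOX2, CD44, CTNND1, ENAH, NFATC3, the genes with a printed sequence and the intermediate filament genes NEFM, NEFL, KRT8 and KRT18 were chosen after their values were seen. Marker genes came from the marker lists. Some genes that this rule named are not reported here. Permutation tests were two-sided. Promoters came from RefSeq (GRCh38.p14), gene positions from GENCODE v29.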

Additional observations from a re-analysis of the deposited data

How the results depend on the processing

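ZEB1, SNAI1, SNAI2, TWIST1, VIM, ESRP1 and ESRP2 kept their direction and their call under each alternative that tested them. With a mean of 1 CPM required in both groups, ZEB1, SNAI1, SNAI2, TWIST1 and ESRP2 were not tested, which left 1 member higher (ESRP1) and 1 lower (VIM), and 76 in place of 121 listed genes higher. With no filter on low counts PRRX1 was tested and 6 members were higher. Leaving out 1 library gave 7458 to 9258 genes called, 5 members higher and 2 to 3 lower. Among all alternatives, ZEB2 was called (lower) only when Vector 3 was left out. Log2 fold changes ranged from -8.02 to -2.08 for ZEB1, 4.11 to 5.97 for SNAI1, 6.13 to 11 for SNAI2, 3.33 to 11.15 for TWIST1, 5.24 to 7.71 for ESRP1 and 2.95 to 8.8 for ESRP2. The value nearest 0 came from log2(FPKM + 1), a scale that understates low genes. Same-numbered libraries deviated together at correlations of 0.15, -0.13 and -0.15. Differently numbered libraries were not set beside them, so whether a number marks a shared experiment was not tested. With the replicate block 7924 genes were called, with 5 members higher and 2 lower, and 122 listed genes higher and 43 lower in place of 121 and 44. Depth limits what can be said of TWIST2 and PRRX1, at 0 and 10 counts in all libraries together.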

Other observations

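Intermediate filament genes other than VIM were divided. Of 30 listed and 26 tested, 11 were higher under the LINC00665 label, 5 lower and 10 neither (61.5% called, median log2 fold change 0.38, against 63.5% and 0.03 over all tested genes). Keratin KRT19 rose from 1.08 ± 0.326 to 2813 ± 386.6 CPM and KRT5 from 0.383 ± 0.19 to 834.5 ± 45.3 CPM, while the simple epithelial keratins KRT8 and KRT18 had log2 fold changes of 0.95 (adjusted p = 0.028, edgeR) and 0.92 (adjusted p = 0.10). The neurofilament genes NEFM and NEFL had 0 counts under Vector and 30.6 and 11.8 CPM under LINC00665, at least 596-fold and 231-fold higher. The nuclear lamins LMNB1 and LMNB2 fell from 183.7 ± 41.1 to 87.7 ± 3.67 CPM and from 370.5 ± 18.6 to 207.7 ± 14.2 CPM. Of the 11 that rose, 6 did not pass the filter under Vector alone, and among the 19 genes at 1 CPM or more under both labels 5 were higher and 5 lower.

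Genes listed for the signals that induce the EMT factors include modulators such as SMAD7 and TWSG1, so not all of them are inducers. Of 26 tested, 12 were called higher, SMAD7 among them, and 5 lower (28 listed, median 0.73). The 65.4% called was near the 63.5% of all tested genes. The receptor NOTCH1 rose from 6.37 ± 1.68 to 72.4 ± 5.19 CPM and the ligand TGFB2 from 2.38 ± 0.862 to 47.3 ± 5.6 CPM. The ligand TGFB1 fell from 143.9 ± 26.6 to 79.5 ± 1.58 CPM and TWSG1, a modulator of BMP signals, from 49 ± 6.51 to 23.1 ± 3.06 CPM. The transforming growth factor ligands TGFB1 and TGFB2 thus moved in opposite directions between the same libraries.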
